A study of Mus musculus with 6 samples.

Results

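The osteoblast lineage transcription factors described here are *Runx1* and *Runx2*, their partner subunit *Cbfb*, the zinc finger factor *Sp7* (osterix), and the homeodomain factors *Dlx3*, *Dlx5*, *Dlx6*, *Msx1* and *Msx2*. Members were chosen by the gene symbol printed beside each probe. The 9 genes were read by 15 of the 45281 probes on the array, which carry 31508 gene symbols in all. The samples were cortical bone tubes, the shafts of tibia and femur of C57BL6 mice given as 3 months old in the sample labels (the methods give 2–3 months). The tubes had been flushed and digested with collagenase and trypsin to clear marrow and surface cells and leave osteocytes in their matrix, but markers of blood, marrow and osteoclasts were still measured in both groups. After a night in culture the tubes were kept for 24 h either untreated (control, 3 arrays) or with 250 nM Pth 1-34, the active fragment of parathyroid hormone (PTH, 3 arrays). Both groups were of the same strain and received no other agent, and the RNA of each preparation was pooled from several mice, so the spread between arrays is a spread between pools. Nothing in the labels says that the 3 preparations of a group came from separate experiments, so the p-values measure the spread between these arrays, which may be partly technical.

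Osteoblasts arise from mesenchymal progenitors under the control of a small set of transcription factors. *Runx2* commits cells to the lineage, and *Sp7* acts downstream of it and is needed for osteoblasts to form. Runx proteins bind DNA poorly alone and do so as a heterodimer with *Cbfb*, which has no DNA binding of its own. Dlx and Msx proteins bind AT-rich homeodomain sites in the promoters of bone genes, where *Dlx3* and *Dlx5* are known mainly as activators and *Msx2* mainly as a repressor. Osteocytes are osteoblasts that have been buried in the matrix they made, and PTH acts on both cells through a receptor coupled to cAMP.

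Values are signals after background correction and quantile normalization, on the log2 scale, and a probe was counted as above background on an array where its detection p was under 0.05. Testing took in every probe that rose above background on 3 or more of the 6 arrays. Median signal before correction was between 111 and 129 on the 6 arrays, against a background of 104 to 121, and 34.2% to 38.4% of the probes on an array passed detection. Arrays of the same group correlated at r = 0.982 to 0.985 over the tested probes and no pair of arrays held the same values throughout. The control and PTH arrays numbered 3 correlated at 0.984, while the other pairs of a control and a PTH array lay between 0.975 and 0.979. The markers of osteocytes and osteoblasts were present, with 9 of 11 tested, although *Fgf23* and *Kera* were above background on no array.

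Of the 15 probes, 9 were tested and they stood for 7 genes. The other 6 probes were above background on no array, and they included both probes of *Runx2* and both probes of *Msx2*, which therefore had no tested value. One of the tested probes, that of *Sp7*, passed an adjusted p of 0.05, and it was lower with PTH. Over the whole array 161 of 16214 tested probes were lower with PTH at that threshold, or 0.993%, and 100 were higher, or 0.617%. None of the 9 tested probes was called higher at the adjusted threshold in limma, and none of those that reached an unadjusted p under 0.05 was higher. All 9 had a lower mean with PTH, with a median log2 change of −0.20 against 0.004 over all tested probes, but the changes of the 3 *Cbfb* probes were near 0 and were 0.03 to 0.06 when the arrays were scaled to a common median, which moved the median of all tested probes to 0.11 and left them at −0.08 to −0.05 relative to it. In 3 of the 9, those of *Sp7*, *Dlx3* and *Msx1*, the PTH values were all below the lowest control value, against 10.5% of all tested probes, and in none were they all above the highest, against 10.3%. These were bulk samples, in which fewer cells of a type and less RNA per cell cannot be told apart.

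**Figure D1:**
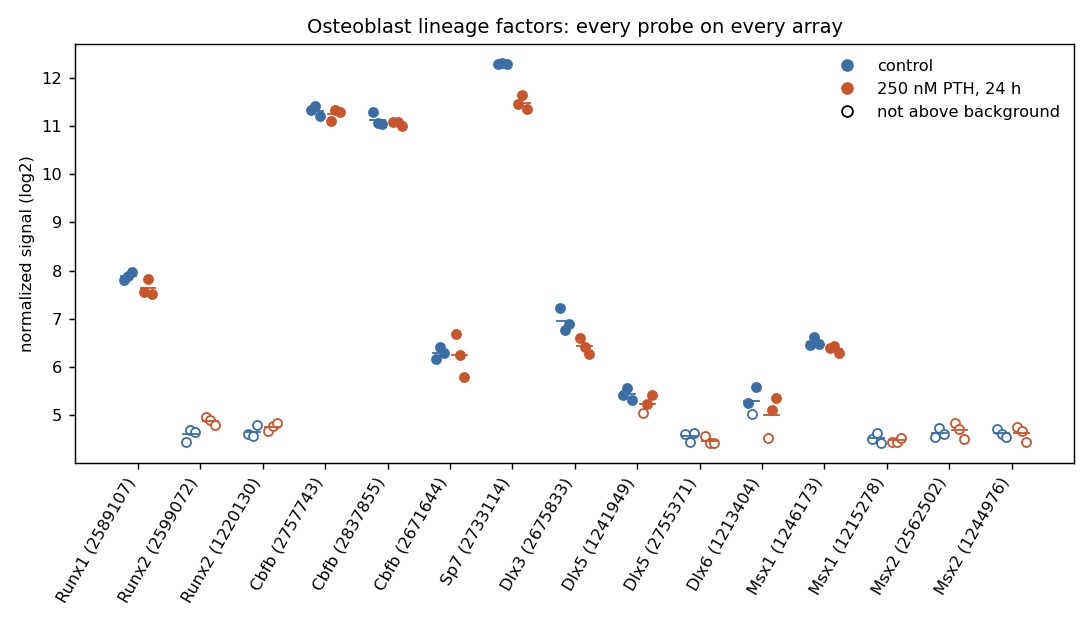
Normalized signal (log2) of each of the 15 probes of the 9 factors on each of the 6 arrays, with control in blue, PTH in orange, a bar at each group mean, and open circles where a probe was not above background on that array. *Sp7* falls from about 12.30 to 11.49 with no overlap between the groups, while both probes of *Runx2* and both of *Msx2* are open on all 6 arrays.

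*Runx1*, which is best known for blood formation but is also present in skeletal progenitors, gave 7.80, 7.89 and 7.96 in control and 7.55, 7.83 and 7.52 with PTH. The middle PTH array lay within the control range, so that the groups overlapped. The mean was 7.88 ± 0.08 in control and 7.63 ± 0.17 with PTH (SD, n = 3 each), a log2 difference of −0.25 (SE 0.14, 95% interval −0.57 to 0.06), and limma's adjusted p was 0.447.

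The first *Runx2* probe, ILMN_2599072, read 4.44, 4.69 and 4.64 in control and 4.96, 4.89 and 4.78 with PTH, all of them within background, with detection p-values from 0.0962 to 0.735. The second, ILMN_1220130, read 4.60, 4.55 and 4.78 in control and 4.66, 4.76 and 4.82 with PTH. No fold change is given for a gene at background in both groups. The signal of these 2 probes, between 106 and 128 before correction, was not detectable above the negative controls, which does not show that the transcript was absent. A probe under the symbol *PEBP2aB* was above background on 1 array, and its gene was not matched here. The only probe of *Runx3*, the remaining gene of the family, was above background on none.

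*Runx1* and *Runx2* have a stretch in common just after one of their annotated transcription starts, and it is shown because it holds a pair of the hexamers that Runx proteins bind. Both are given on the strand of the gene, from assembly GRCm38.p6 in RefSeq, with the hexamer in capitals. The *Runx1* stretch lies at chr16:92826027-92826054, from base 21 to base 48 after the start, and the *Runx2* stretch at chr17:44814585-44814612, from base 16 to base 43 after the start.
Runx1: cataaacaACCACAgaACCACAagttgg
Runx2: cacaaacaACCACAgaACCACAagtgcg
The longest identical run between the promoter windows of these genes was 22 bases, and it holds both hexamers. The *Runx2* window held a further hexamer 80 bases before the start. The hexamer TGTGGT, or ACCACA on the other strand, was found in 16.8% of 32851 RefSeq windows that run from 250 bases before a start to 50 after. A match in these letters is a description and not a measured site.

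*Cbfb*, the common partner of all Runx proteins, was read by 3 probes above background on all 6 arrays. Probe ILMN_2757743 gave 11.34, 11.42 and 11.22 in control and 11.12, 11.35 and 11.30 with PTH. Probe ILMN_2837855 gave 11.31, 11.08 and 11.04 in control and 11.09, 11.09 and 11.00 with PTH. The groups overlapped on both. Their log2 differences were −0.07 (SE 0.13, 95% interval −0.37 to 0.23) and −0.08 (SE 0.13, 95% interval −0.38 to 0.22), with adjusted p-values of 0.86 and 0.833 in limma. The third probe, ILMN_2671644, was much dimmer and more scattered, at 6.15, 6.41 and 6.29 in control and 6.68, 6.24 and 5.79 with PTH, with a log2 difference of −0.04 (SE 0.22, adjusted p = 0.957 in limma). Its sign turned with the array left out, from −0.26 to 0.18.

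*Sp7* was the factor whose probe passed the threshold. Its probe gave 12.29, 12.32 and 12.30 in control and 11.47, 11.65 and 11.36 with PTH. The control arrays were almost equal, all 3 PTH arrays lay below them, and the PTH arrays differed more among themselves. The mean fell from 12.30 ± 0.02 to 11.49 ± 0.15 (SD, n = 3 each), a log2 change of −0.81 (SE 0.13, 95% interval −1.10 to −0.51), which is 1.75-fold lower, with an adjusted p of 0.0259 by limma. The gap was also present before any processing, with signals of 4030, 5080 and 4990 in control and 2410, 3390 and 3680 with PTH. Without any 1 of the 6 arrays the change lay between −0.88 and −0.73 and the adjusted p between 0.0576 and 0.103, so that the call needed all 6. It was also lost when the arrays were scaled to a common median (−0.65, or −0.76 relative to the median of all tested probes, which then moved by 0.11, adjusted p = 0.534 by limma), when both arrays numbered 3 were left out (−0.73, adjusted p = 0.162 by limma), and in the methods' t-test after Benjamini-Hochberg adjustment (adjusted p = 0.0704).

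**Figure D2:**
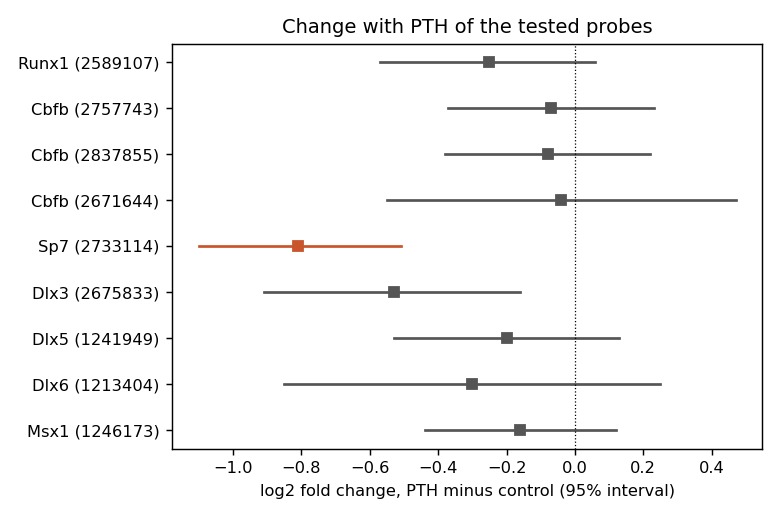
Log2 change with PTH (PTH minus control) of the 9 tested probes, with squares for the estimate of the limma fit and lines for its 95% interval, and the probe that passed an adjusted p of 0.05 in orange. The interval of *Sp7* runs from −1.10 to −0.51 and that of *Dlx3* from −0.91 to −0.16, and the other 7 include 0.

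Markers of other cells moved between the same groups, and their part in the value of *Sp7* was not tested. For comparison, 1.04% of all tested genes were called lower and 0.685% higher. Every PTH array was below every control array in 10.5% of all tested probes, and above in 10.3%. Of the 11 osteocyte and osteoblast markers, 2 of the 9 tested were called lower and 7 had every PTH array below every control array, with a summed signal of 28600 to 30700 in control and 18100 to 20500 with PTH. *Pdpn* went the other way, with every PTH array above every control array and a log2 change of 0.70 (adjusted p = 0.056 by limma). Of the 17 blood and marrow markers, 14 were tested and 4 were called lower, the neutrophil granule genes *Elane*, *Mpo*, *Ngp* and *Ltf*, with a summed signal of 55600 to 56500 in control and 36900 to 41400 with PTH. A lower mean with PTH was seen in 13 of the 14, though by only −0.04 for *Csf1r*. *Spi1* had every PTH array above every control array (0.52, adjusted p = 0.122 by limma). Among the markers not tested, *Cd79a* and *Gata1* were at background on all 6 arrays. Of the 6 osteoclast markers, 3 were tested, and *Acp5* and *Mmp9* were called higher, with a sum of 11800 to 13300 in control and 15800 to 20300 with PTH. The markers *Calcr*, *Atp6v0d2* and *Ocstamp* were above background on no array. Of the 7 cartilage markers, 5 were tested and *Acan* was called lower. *Acan* was above background on all 3 control arrays and on no PTH array, so it was tested through the control arrays alone. With the PTH arrays set at the lowest signal above background, it was at least 1.59-fold lower. *Acan*, *Col2a1* and *Col10a1* had every PTH array below every control array. *Comp* overlapped, and *Sox9*, the brightest, had every PTH array above every control array. The sum, to which *Sox9* gave most, was 995 to 1010 in control and 1030 to 1050 with PTH. Skeletal muscle and fat had 1 tested marker each of 6 and 4, and 5 muscle markers and 3 fat markers were above background on no array. The 4 endothelial markers were all tested and none was called, with sums of 489 to 594 in control and 465 to 524 with PTH.

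*Dlx3*, a homeodomain factor of differentiating osteoblasts and osteocytes, gave 7.22, 6.76 and 6.88 in control and 6.60, 6.40 and 6.27 with PTH. The PTH arrays lay below the control arrays without overlap, although the highest PTH array and the lowest control array were close. The mean was 6.96 ± 0.24 in control and 6.42 ± 0.16 with PTH (SD, n = 3 each), a log2 difference of −0.53 (SE 0.16, 95% interval −0.91 to −0.16). The unadjusted p was 0.0117 and the adjusted p 0.184 in limma, so that *Dlx3* did not pass the threshold. After quantile normalization without background correction the difference was −0.28.

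*Dlx5* and *Dlx6* are neighbouring genes that are often active together in the skeleton, and both were near the limit of detection. The *Dlx5* probe ILMN_1241949 gave 5.41, 5.55 and 5.30 in control, where it was above background on all 3 arrays, and 5.04, 5.22 and 5.40 with PTH, where it was above background on 2. The groups overlapped, and the log2 difference was −0.20 (SE 0.14, 95% interval −0.53 to 0.13, adjusted p = 0.597 in limma). The other *Dlx5* probe, ILMN_2755371, was above background on no array. *Dlx6* gave 5.25, 5.02 and 5.58 in control and 4.52, 5.10 and 5.34 with PTH, and was above background on 2 arrays of each group. Its groups overlapped as well, with a log2 difference of −0.30 (SE 0.24, 95% interval −0.85 to 0.25, adjusted p = 0.627 in limma). This value was −0.07 without PTH array 1, −0.15 without control array 3 and −0.11 after quantile normalization alone. The probes of *Dlx1*, *Dlx2* and *Dlx4*, the remaining measured Dlx genes, and of *Dlx6as*, a transcript from the opposite strand at *Dlx6*, were above background on no array.

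*Msx1*, a homeodomain factor of progenitor cells, was read by probe ILMN_1246173 at 6.45, 6.62 and 6.48 in control and at 6.38, 6.42 and 6.28 with PTH. The PTH values were all below the lowest control value, but by a small distance. The log2 difference was −0.16 (SE 0.12, 95% interval −0.44 to 0.12, adjusted p = 0.617 in limma). A second *Msx1* probe, ILMN_1215278, was above background on no array. The probes of *Msx2* gave 4.53, 4.73 and 4.59 in control against 4.82, 4.70 and 4.50 with PTH, and 4.70, 4.60 and 4.53 against 4.74, 4.65 and 4.44. All of these were at background, and no change is given for *Msx2*.

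Whether *Sp7* changed more than the other factors was asked of the difference between 2 genes on the same array, which removes any shift of a whole array. For this, 6 pairs of genes above background on all 6 arrays were compared, chosen after the data were seen. With 3 arrays against 3 the exact two-sided permutation test cannot give a p below 0.1, so no pair could pass 0.05. *Sp7* minus *Runx1* was 4.48, 4.43 and 4.34 in control and 3.92, 3.83 and 3.84 with PTH, a shift of −0.55 with no overlap. *Sp7* minus *Cbfb* was 0.94, 0.90 and 1.08 in control and 0.35, 0.30 and 0.06 with PTH, a shift of −0.74 with no overlap. *Sp7* minus *Msx1* was 5.83, 5.70 and 5.82 in control and 5.09, 5.24 and 5.08 with PTH, a shift of −0.65 with no overlap. Each of these 3 shifts had the smallest p the exact test can give (p = 0.1, adjusted over the 6 pairs 0.2). *Sp7* minus *Dlx3* was 5.06, 5.56 and 5.41 in control and 4.87, 5.25 and 5.09 with PTH, a shift of −0.27 in which the groups overlapped (exact p = 0.3, adjusted 0.3). The overlap was gone after quantile normalization alone, with a shift of −0.51, and without control array 1, with a shift of −0.41, while the shift was −0.17 without control array 2 and −0.18 without PTH array 1. Quantile normalization alone left *Sp7* at −0.79, against −0.81 in the main fit. It took the dimmer *Dlx3* from −0.53 to −0.28, so the wider shift there reflects a smaller value for *Dlx3*. *Dlx3* minus *Msx1* shifted by −0.38 (exact p = 0.2, adjusted 0.3) and *Runx1* minus *Cbfb* by −0.18 (exact p = 0.3, adjusted 0.3), both with overlap.

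**Figure D3:**
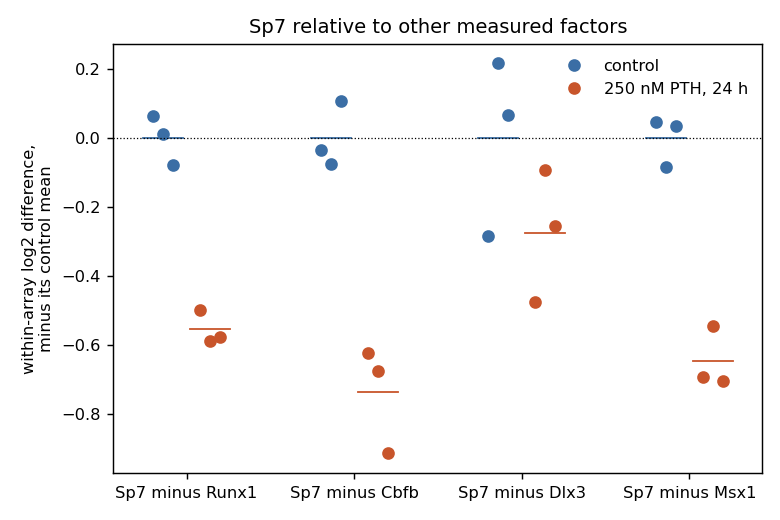
Within-array log2 difference between *Sp7* and each of 4 other factors, less the mean of that difference over the control arrays, with one point per array and a bar at each group mean. The PTH points lie below all control points against *Runx1*, *Cbfb* and *Msx1*, with mean shifts of −0.55, −0.74 and −0.65, and overlap with them against *Dlx3*.

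Among 12677 probes above background on all 6 arrays, the 3 genes whose log2 values followed those of *Sp7* most closely were *Atp2a3*, a calcium pump of the endoplasmic reticulum (Pearson r = 0.9991 over 6 arrays), *Tgn*, now named *Tg*, which encodes thyroglobulin (r = 0.9978), and *Pace4*, now *Pcsk6*, a proprotein convertase (r = 0.9949). All 3 were lower with PTH, by log2 changes of −0.65, −1.48 and −1.68, with adjusted p-values of 0.0464, 0.0083 and 0.00218 in limma. The 6 arrays are 3 of each group, so these values of r mostly describe the same split between the groups and carry no test.

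The proteins that work with Runx factors, and other transcription factors of the skeletal lineage, were counted in 2 lists. Of 33 Runx partners and cofactors, 28 were tested, 13 had a lower mean with PTH, and the median log2 change was 0.01 against 0.005 over all 11979 tested genes. None was called lower and 1 was called higher, while over all tested genes 1.04% were called lower and 0.685% higher. The gene called higher was *Smad3*, which carries TGF-beta signals to the nucleus and binds *Runx2*. *Smad3* gave 9.35, 9.46 and 9.59 in control and 10.14, 10.22 and 10.05 with PTH, a log2 change of 0.67 (SE 0.13) with an adjusted p of 0.049 by limma. The groups did not overlap, but the call was close to the threshold and was lost without any 1 of the 6 arrays. The next largest differences in this list did not pass. They were *Yap1*, a Hippo pathway coactivator (0.49, adjusted p = 0.223 by limma), the deacetylase *Hdac5* (−0.45, 0.214), and the acetyltransferase *Ep300* (−0.44, 0.242).

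Of 48 other lineage factors, 47 were on the array and 32 were tested. None was called in either direction by limma, against 1.04% of all tested genes called lower and 0.685% called higher. An unadjusted p under 0.05 in limma was reached by 6 of them, and by 2375 of all 16214 tested probes. The median log2 change was 0.04, and the mean was lower with PTH in 14 genes. All PTH values were above all control values in 4 genes and below them in 1, against 10.3% and 10.5% of all tested probes. Among the larger fitted differences were those of *Sox5*, a factor of cartilage (0.69, adjusted p = 0.325 by limma), *Twist2*, an inhibitor of *Runx2* (0.57, 0.379), and *Zeb1*, a transcriptional repressor (0.46, 0.138). *Tcf7*, a Wnt pathway factor, was above background on all 3 control arrays and on no PTH array, with measured means of 5.73 and 4.94. The second mean lies below detection. With the PTH arrays set at the lowest signal above background instead, the measured signal was 1.59-fold lower with PTH. The gene did not pass (adjusted p = 0.167 by limma). The direct relative of the Msx genes in this list, *Msx3*, gave a log2 difference of −0.18 (adjusted p = 0.767 by limma).

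Transcripts that these factors are known to act on made up a further list. Of 30 target transcripts 27 were tested and 21 had a lower mean with PTH. In 18 every PTH array was below every control array, against 10.5% of all tested probes. The median log2 change was −0.51, against 0.005 over all tested genes. Limma called 5 lower and 1 higher, against 1.04% and 0.685% of all tested genes. This list was chosen with earlier results of these arrays known and shares 8 genes with the osteocyte and osteoblast markers, so its direction is a description.

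**Figure D4:**
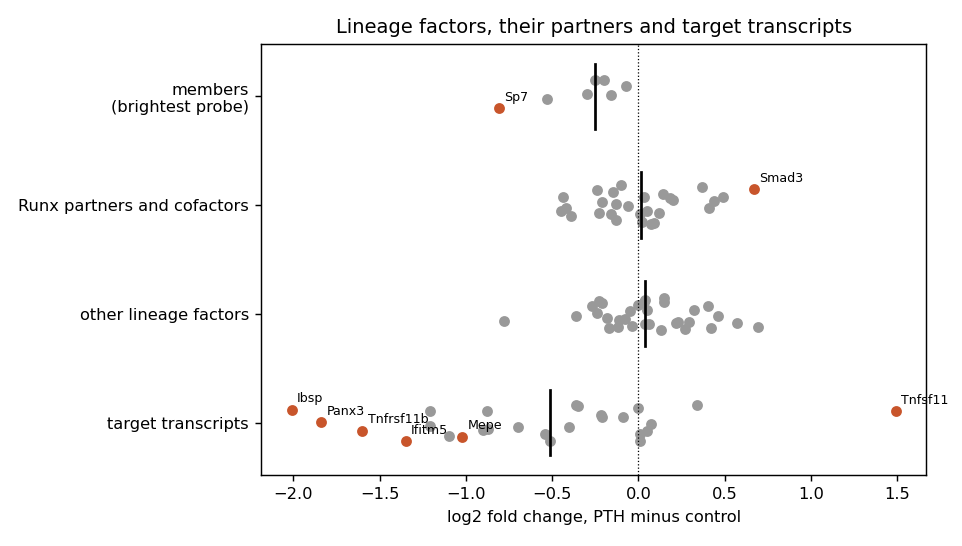
Log2 change with PTH of each tested gene, one point a gene by its brightest probe, for the factors, their partners and cofactors, other lineage factors and target transcripts, with genes called at an adjusted p of 0.05 in orange and named, and a bar at each median. The partner and other factor lists sit around 0, with medians of 0.01 and 0.04, and the target transcripts around −0.51.

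The largest fall was in *Ibsp*, which encodes the matrix protein bone sialoprotein and is bound by *Runx2* and *Dlx5*. It gave 12.56, 12.51 and 12.50 in control and 10.55, 10.53 and 10.47 with PTH, a log2 change of −2.01 (SE 0.11, adjusted p = 0.000747 by limma). The 3 arrays of each group were nearly equal, and the groups were far apart. *Panx3*, a pannexin channel of osteoblasts, fell from 8.51, 8.55 and 8.42 to 6.59, 6.78 and 6.59 (−1.84, SE 0.12, adjusted p = 0.000747). *Tnfrsf11b*, the decoy receptor osteoprotegerin, fell from 11.09, 11.33 and 11.14 to 9.71, 9.65 and 9.41 (−1.60, SE 0.14, adjusted p = 0.00194). Both kept every PTH array below every control array. *Mepe*, an osteocyte matrix phosphoglycoprotein, fell from 12.17, 12.26 and 12.34 to 11.11, 11.19 and 11.41 (−1.02, SE 0.13, adjusted p = 0.0128). *Ifitm5*, a membrane protein of mineralizing osteoblasts, gave 5.87, 6.20 and 6.14 in control and was above background on no PTH array, where it read 4.65, 4.85 and 4.67. It was therefore at least 2.01-fold lower (adjusted p = 0.00558 by limma).

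The target that rose was *Tnfsf11*, or RANKL, the ligand that drives osteoclast formation and that osteoprotegerin blocks. It went from 8.21, 8.02 and 8.93 to 9.91, 9.65 and 10.09 (1.49, SE 0.25, adjusted p = 0.0298 by limma), with the third control array well above the other two. *Ibsp*, *Panx3* and *Tnfrsf11b* kept their call with each of the 6 arrays left out in turn. *Tnfsf11* lost it in 5 of the 6 (and without a detection filter) and kept it without control array 3, and *Mepe* lost it in 4. *Ifitm5* was above background on the 3 control arrays only. With any of them left out it fell below the detection filter and was not tested, and it kept its call in the other 3 runs. The number of targets called fell from 6 to 3 without control array 1 and without control array 2, where *Ifitm5* was among those not tested. Among targets that did not pass, *Dmp1*, an osteocyte matrix phosphoprotein, had a log2 difference of −1.21 (adjusted p = 0.0557 by limma) and *Sost*, the Wnt inhibitor sclerostin, one of −1.21 (adjusted p = 0.15), with groups that overlapped for *Sost*. The collagen I chains were unlike each other, with −0.54 for *Col1a1* (adjusted p = 0.0798) and 0.01 for *Col1a2* (adjusted p = 0.971). *Spp1*, or osteopontin, gave 0.01 (adjusted p = 0.984).

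Of the 6 targets called, 4 had a RefSeq promoter window, and those of *Ibsp* and *Mepe*, which lie near each other on chromosome 5, are shown for the 250 bases before the start as examples of a window without and a window with the Runx hexamer. The windows are chr5:104299037-104299286 for *Ibsp* and chr5:104325079-104325328 for *Mepe*, both on the plus strand of GRCm38.p6. Capitals mark the Runx hexamer (TGTGGT or ACCACA) and the homeodomain core (TAATT or AATTA, which overlap in TAATTA).
Ibsp: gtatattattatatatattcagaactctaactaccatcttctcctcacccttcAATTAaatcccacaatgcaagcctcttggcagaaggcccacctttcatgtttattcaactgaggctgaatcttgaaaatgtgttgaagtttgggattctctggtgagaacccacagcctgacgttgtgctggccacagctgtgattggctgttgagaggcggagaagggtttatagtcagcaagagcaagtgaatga
Mepe: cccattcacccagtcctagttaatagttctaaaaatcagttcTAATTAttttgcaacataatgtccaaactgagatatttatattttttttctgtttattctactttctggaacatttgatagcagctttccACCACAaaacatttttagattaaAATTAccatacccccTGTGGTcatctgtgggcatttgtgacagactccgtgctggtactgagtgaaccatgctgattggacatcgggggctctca
The *Ibsp* window held a homeodomain core 197 bases before the start and no Runx hexamer in these letters. The *Mepe* window held Runx hexamers 118 and 80 bases before the start and homeodomain cores at 208, 207 and 95 bases before it. The homeodomain core was present in 27.0% of all windows and the GC box bound by Sp family proteins, GGGCGG or CCGCCC, in 35.7%. The GC box was found 4 times in the window of *Cbfb*, once in that of *Msx1* and once in that of *Msx2*, and 2 times in that of *Ifitm5*, which also held a homeodomain core 86 bases before the start. The window of *Tnfsf11*, the target that rose, held none of the 3 motifs. Windows for *Sp7*, *Dlx3*, *Dlx5*, *Dlx6*, *Panx3* and *Tnfrsf11b* were not used here.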

How the data were processed

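RNA from 3 control and 3 PTH preparations of cortical bone tubes was labelled with biotin and read on Illumina mouse bead arrays. The authors deposited the linear intensity of each probe on each array, not normalized, and beside it a detection p-value that sets the probe against the negative controls of its array. Per the labels these came from GenomeStudio, with no version given. All columns of per-sample values were used. Array slides are not given in the sources used here.

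Groups were taken from the sample labels. In limma 3.58.1 (R 4.3.3) the intensities were corrected with normexp, using the detection p-values to place the background, raised by 16, quantile normalized and put on the log2 scale. Probes with a detection p under 0.05 on at least 3 of 6 arrays went into lmFit and eBayes, and p-values were adjusted by Benjamini-Hochberg across all 16214 of them. A probe was called at an adjusted p under 0.05. Genes outside the 9 factors were represented by their brightest probe. Array symbols were matched to current names through the RefSeq gene table of GRCm38.p6. Where a group had no array above background for a probe, its value was given as a bound, set at the lowest signal above background on each array. Differences between genes were compared by an exact permutation test over the 6 arrays. The fit was tested on simulated data drawn from the means and spread of these arrays. It returned the sizes and signs put into those data with few false calls, but left part of the changed probes uncalled, above all those with small changes, so a factor that did not pass may still have changed.

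Genes were named by a rule. All probes of the 9 factors were named, and from each of the 3 lists (Runx partners and cofactors, other lineage factors, target transcripts) the genes called and the 4 with the largest absolute log2 change, and the 3 genes most like *Sp7*. A few further genes, among them *Dmp1*, *Sost*, *Col1a1*, *Col1a2*, *Spp1* and *Msx3*, were named after their values were seen. Marker lists covered osteocytes and osteoblasts, blood and marrow, osteoclasts, cartilage, skeletal muscle, fat and endothelium. The members and all lists were chosen with earlier results of these data known. With 3 arrays a group, their number limits the precision. The alternatives were other normalizations, background offsets, filters, thresholds and tests, the replicate number as a block, and each array left out. The pairs of genes compared, the term for the arrays numbered 3 and leaving both of them out were added after the data were seen. The authors' normalized values were not used. Promoter sequences are those of RefSeq, with 5 of the 9 factors found there.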

Additional observations from a re-analysis of the deposited data

How the results depend on the processing

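With each array left out in turn, the number of factor probes called went from 1 to 0–0, of all probes from 261 to 72–127, of Runx partners from 1 to 0–0 and of target transcripts from 6 to 3–6. The target *Ifitm5* was not tested in the runs that left out a control array. *Sp7* kept its direction in every alternative run, with adjusted p-values from 2.71e-06 (intensity trend) to 0.534 (median scaling) and 7 of 10 alternatives on all 6 arrays under 0.05. No alternative brought *Dlx3* under an adjusted p of 0.05. Scaling to a common median called 0 factor probes, 138 probes in all and 0 Runx partners, and moved the share of higher calls from 38.3% to 55.8%. It gave 0.03 for *Cbfb* probe ILMN_2671644, 0.05 for ILMN_2757743 and 0.06 for ILMN_2837855, which relative to the median of all probes were −0.08, −0.06 and −0.05. With both arrays numbered 3 left out, 0 factor probes, 34 probes in all and 0 Runx partners were called and ILMN_2671644 gave 0.18, and leaving out single arrays took that probe from −0.26 to 0.18. With a term for the arrays numbered 3, 0 Runx partners were called. Quantile normalization alone called 723 probes, 3 Runx partners, 1 other lineage factor (*Zeb1*) and 16 targets, an offset of 50 called 502 probes and 13 targets, and an intensity trend called 728 probes, 3 partners, 1 other factor and 18 targets. Without a detection filter 0 partners were called, and with detection under 0.01 on all 6 arrays 422 probes were called. At an unadjusted p under 0.05 limma called 2 factor probes (*Sp7* and *Dlx3*), 2375 probes, 7 partners, 6 other factors and 18 targets. The methods' t-test, which they name for comparisons of 2 groups in general and not for the arrays, called at that threshold 2, 2257, 7, 5 and 19, and after Benjamini-Hochberg 0 factor probes, 117 probes, 0 partners and 1 other factor (*Sox9*). The causes of these differences were not tested.

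Same-numbered arrays deviated together with r = 0.07, 0.06 and 0.27, so the numbers were not taken to pair the samples. With the replicate block 0 factor probes (*Sp7* at an adjusted p of 0.0765), 64 probes in all and 0 Runx partners were called. The planned comparisons of *Runx1* with *Runx2*, *Dlx5* with *Dlx3* and *Dlx6*, and *Msx2* with *Msx1* were not run, because *Runx2*, *Dlx5*, *Dlx6* and *Msx2* were not above background on all 6 arrays, and *Runx2* and *Dlx5* could not be set against other genes by likeness for the same reason. Of the added pairs, *Sp7* minus *Dlx3* gave −0.51 without overlap after quantile normalization alone and −0.41 to −0.17 with single arrays left out, *Dlx3* minus *Msx1* gave −0.52 to −0.21, and *Runx1* minus *Cbfb* −0.24 to −0.09.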
